A study of Mus musculus with 54 samples.

Results

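The 9 genes described here, Rai1, Ehmt1, Tcf4, Ube3a, Zeb2, Kmt2c, Hdac4, Smarcb1 and Cntnap2, are the mouse orthologs of genes whose disruption in people causes neurodevelopmental syndromes with features that overlap those of MBD5 deletion. They were chosen by name for their syndromes, with no threshold on a measured value, from the 47069 genes of an RNA-seq count table of mouse brain, and 9 of 9 passed the filter on low counts in cerebellum, cortex and striatum. The table held 54 libraries, 1 from each of the 3 regions of 18 mice at 8 weeks of age. Of these mice, 10 were heterozygous for a gene trap in Mbd5 (Mbd5+/GT, 5 females and 5 males) and 8 were wild-type littermates (WT, 5 females and 3 males), all on a C57BL/6 background. The trap, construct pU-21B, sits in an intron of Mbd5 and leaves a hypomorphic allele in every cell of the animal. Litter 1 held 3 Mbd5+/GT and 3 WT females, litter 2 held 4 Mbd5+/GT males and 1 WT male, and the 7 mice of litter 3 (3 Mbd5+/GT, 4 WT) were of both sexes, so sex varied within a litter in litter 3 alone. The brains carried no other stated allele or treatment. The authors state same-day collection for each tissue type, and whether different regions shared a day is not made clear.

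MBD5 belongs to the methyl-CpG-binding domain family, and loss of a single copy causes intellectual disability with seizures, sleep disturbance and autistic features. The syndromes compared with it run through a small number of nuclear processes: histone methylation (EHMT1 in Kleefstra syndrome, KMT2C in the Kleefstra spectrum), histone deacetylation (HDAC4), chromatin remodelling (SMARCB1 in Coffin-Siris syndrome), transcription factors and co-regulators (RAI1 in Smith-Magenis syndrome, TCF4 in Pitt-Hopkins syndrome, ZEB2 in Mowat-Wilson syndrome), ubiquitin transfer (UBE3A in Angelman syndrome) and neuronal adhesion (CNTNAP2). Most of these disorders follow from the loss of a single working copy, and for those the dose of the transcript is the quantity of interest.

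The count on genes ran from 25295973 to 49027399 reads in a library. The trapped gene was lower in Mbd5+/GT mice by log2 differences of −0.34 in cerebellum (76.9% of WT, adjusted p = 0.0091), −0.49 in cortex (69.9%, adjusted p = 1.2e-04) and −0.51 in striatum (75%, adjusted p = 9.4e-05; edgeR quasi-likelihood test with Benjamini-Hochberg adjustment). Synthetic spike-in RNAs took between 0.0207% and 0.728% of a library. In 4 libraries the summed markers of the labelled region were low: a cerebellum library of an Mbd5+/GT mouse and another of a WT mouse, with summed Purkinje cell markers of 216 and 2120 CPM (counts scaled to library size) against 4560 to 8640 in the others and summed Hox genes of 246 and 121 CPM, and the striatum libraries of 2 WT mice, whose summed striatal projection neuron markers were below the 1580 to 9150 CPM of the others, 325 CPM in the lowest. A WT and an Mbd5+/GT cerebellum library that were not low in markers also had summed Hox genes of 47 and 42.9 CPM. The remaining cerebellum libraries had 2.02 CPM or less. In bulk tissue, fewer cells of a type and less RNA per cell cannot be told apart.

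Within a region, the members divided into genes whose level was steady between mice and genes whose level was not. Levels are in CPM, normalised by TMM over all libraries. Ube3a and Kmt2c had within-group SDs of 0.44 and 0.46 on the log2 scale, above 94% and 94.2% of genes of like level, and Zeb2 had 0.44, above 93.2%. Ehmt1 had 0.19, above 35.1%. Ube3a, Kmt2c and Smarcb1, which covaried closely across libraries, in the same or the opposite direction, are shown with the sequence around their transcription start. It runs from 250 bases before to 50 bases after the start, from RefSeq on GRCm38.p6, 5′ to 3′ on the strand of the gene. Each CG dinucleotide is in capitals, since methylated CpG is the target of the family that MBD5 is named for. MBD5 itself is reported not to bind methylated DNA in vitro, and methylation was not measured here. The windows are chr7:59228500-59228799 (plus strand) for Ube3a, chr5:25498734-25499033 (minus strand) for Kmt2c and chr10:75921565-75921864 (minus strand) for Smarcb1.
Ube3a: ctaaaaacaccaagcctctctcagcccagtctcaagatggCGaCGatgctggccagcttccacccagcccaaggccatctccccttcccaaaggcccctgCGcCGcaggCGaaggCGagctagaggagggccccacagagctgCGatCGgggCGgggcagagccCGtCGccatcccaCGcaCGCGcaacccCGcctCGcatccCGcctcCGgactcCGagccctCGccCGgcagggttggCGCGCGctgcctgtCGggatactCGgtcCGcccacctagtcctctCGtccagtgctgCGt
Kmt2c: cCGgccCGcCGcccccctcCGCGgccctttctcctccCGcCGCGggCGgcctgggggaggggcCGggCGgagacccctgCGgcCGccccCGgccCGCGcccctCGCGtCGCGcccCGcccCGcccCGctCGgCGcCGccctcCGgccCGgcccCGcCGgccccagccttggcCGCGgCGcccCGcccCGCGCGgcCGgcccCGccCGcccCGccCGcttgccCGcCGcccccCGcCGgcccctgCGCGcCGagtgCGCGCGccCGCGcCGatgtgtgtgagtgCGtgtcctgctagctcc
Smarcb1: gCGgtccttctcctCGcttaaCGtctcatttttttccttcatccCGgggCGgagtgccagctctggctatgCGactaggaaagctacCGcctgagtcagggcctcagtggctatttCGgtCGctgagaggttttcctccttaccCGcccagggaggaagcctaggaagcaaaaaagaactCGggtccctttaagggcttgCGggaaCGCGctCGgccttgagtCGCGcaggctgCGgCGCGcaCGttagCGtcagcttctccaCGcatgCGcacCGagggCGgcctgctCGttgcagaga

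All 3 windows were rich in CpG. The Kmt2c window held 56 CG dinucleotides and was 88% G and C, with more CG than 99.8% of 32851 RefSeq promoter windows of the same length. Those of Ube3a and Smarcb1 held 29 and 27, more than 87.1% and 84.5% of the windows. The median over all windows was 7, and 94.6% held at least 1 (CG reads the same on both strands). Windows on chromosome 18, where Tcf4 lies, were left out of the reading for members. Promoters were read for the other 8 of 9 members, in 12 windows. The E-box CANNTG, the core of the site bound by TCF4 and, as CACCTG or CAGGTG, by ZEB2, was searched in the same windows, and since it is its own reverse complement a match counts for both strands. It was in 3 of the 12 windows, those of Ehmt1 and Rai1 and 1 of the 2 of Cntnap2, each time as CACCTG, and in 72.3% of all promoters; CACCTG or CAGGTG was in 20.2% of all promoters. The windows shown for Ube3a, Kmt2c and Smarcb1 held none.

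**Figure D1:**
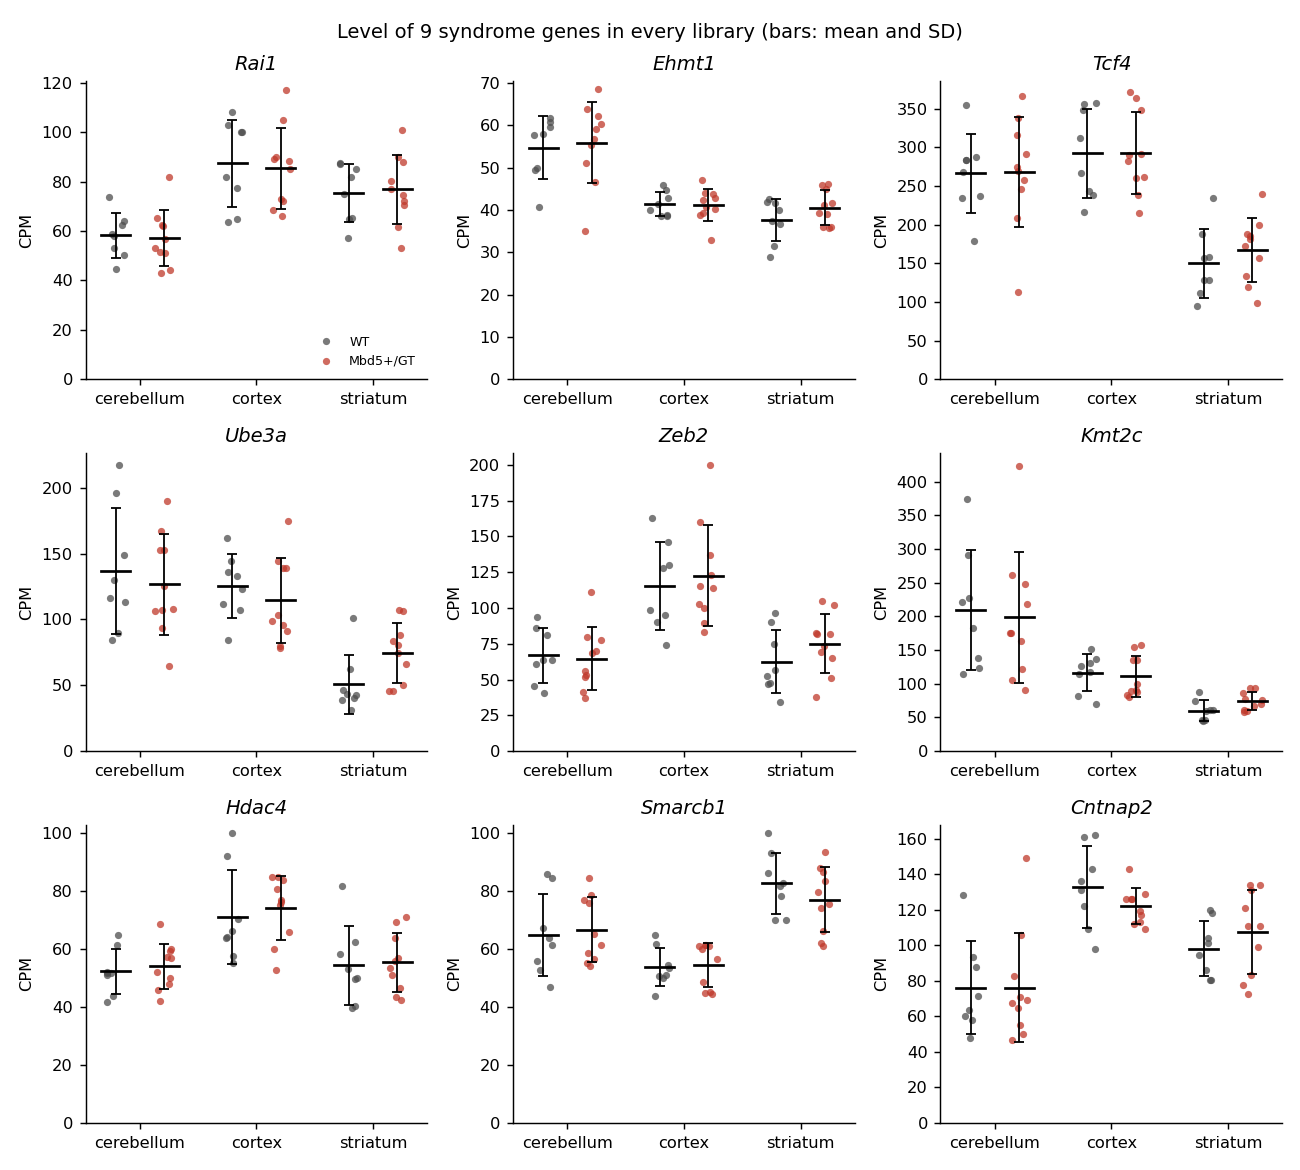
Level of each of the 9 genes (CPM, linear axis from 0) in every library of the cerebellum, cortex and striatum, WT in grey (8 mice) and Mbd5+/GT in red (10 mice), with the mean and SD in black. Genotypes overlap in every region for every gene, while several genes, such as Ube3a and Kmt2c, sit lower in striatum than in cerebellum.

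The levels of the members by region in WT mice were compared in a single edgeR fit over 24 libraries, 8 from each region, to show where each gene was expressed before any change of Mbd5. Among 19219 genes tested, an adjusted p under 0.05 was reached by 56.5% between cortex and cerebellum, by 66.2% between striatum and cerebellum and by 49.1% between cortex and striatum. Of the 9 members, 6 differed between cortex and cerebellum, 7 between striatum and cerebellum and 7 between cortex and striatum. The spike-in share also moved with region: in WT mice it ran from 0.0297% to 0.118% in cerebellum, from 0.0449% to 0.179% in cortex and from 0.129% to 0.728% in striatum. With the log2 of this share as a covariate, which was chosen after seeing the data, 1 member kept an adjusted p under 0.05 between striatum and cerebellum (Ehmt1), against 26.3% of all genes, and 0 between cortex and striatum, against 0.281% (12.3% of all genes had an unadjusted p under 0.05, among them Tcf4 at 0.039). Between cortex and cerebellum 7 did, against 56.7%. Region and spike-in share overlapped little between striatum and the other regions, and the part of the share in these differences was not tested further.

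Of the histone methyltransferases, Kmt2c (ENSMUSG00000038056, chr5:25271798-25498783), which places methyl marks on lysine 4 of histone H3 at enhancers, had the steepest gradient. Its level in WT cerebellum ran from 115 to 375 CPM with a median of 202, in WT cortex from 70.2 to 152 with a median of 122, and in WT striatum from 44.7 to 88 with a median of 60. Every striatum library was below every cerebellum library, while cortex overlapped both of them in range; the order of the medians was cerebellum, cortex, striatum. Cortex was lower than cerebellum by a log2 difference of −0.84 ± 0.21 (SE, adjusted p = 0.0015, edgeR) and striatum by −1.76 ± 0.22 (adjusted p = 1.4e-07, edgeR), a level 3.39-fold lower, and cortex was higher than striatum by 0.92 ± 0.21 (adjusted p = 0.0013, edgeR). With the spike-in covariate the differences from cerebellum were −0.55 ± 0.18 (adjusted p = 0.011, edgeR) and −0.59 ± 0.34 (adjusted p = 0.21, edgeR), and that of cortex against striatum was 0.04 ± 0.27 (adjusted p = 0.98, edgeR).

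Ehmt1 (ENSMUSG00000036893, chr2:24789928-24919614), the GLP subunit of the enzyme that methylates lysine 9 of histone H3, was also highest in cerebellum. WT cerebellum had 54.8 ± 7.35 CPM (SD, n = 8), cortex 41.3 ± 2.83 and striatum 37.6 ± 5.04, so the gene stood above its level in the forebrain regions, which did not differ beyond their spread (log2 difference of cortex against striatum 0.11 ± 0.088, adjusted p = 0.32, edgeR). The differences from cerebellum were −0.40 ± 0.088 in cortex (adjusted p = 4.0e-04) and −0.51 ± 0.088 in striatum (adjusted p = 2.0e-05, edgeR). Ehmt1 was the member least moved by the spike-in covariate between striatum and cerebellum, with −0.47 ± 0.17 (adjusted p = 0.048, edgeR). Its partner Ehmt2, the G9a subunit, had the opposite direction, with a log2 difference of 0.67 ± 0.079 between WT cortex and WT cerebellum (adjusted p = 8.5e-08, edgeR).

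Smarcb1 (ENSMUSG00000000902, chr10:75896769-75921617), a core subunit of the BAF chromatin remodelling complex, was the only member that was highest in striatum. WT levels were 64.7 ± 14.1 CPM in cerebellum, 53.7 ± 6.67 in cortex and 82.7 ± 10.6 in striatum (SD, n = 8 each). All 8 striatum libraries, from 69.8 to 100, were above all 8 cortex libraries, from 43.8 to 64.7. The log2 difference of cortex against striatum was −0.65 ± 0.12 (adjusted p = 1.8e-04) and of striatum against cerebellum 0.39 ± 0.12 (adjusted p = 0.0056), while cortex and cerebellum differed by −0.26 ± 0.12 (adjusted p = 0.061, edgeR). With the spike-in covariate these were −0.23 ± 0.16 for cortex against striatum and −0.16 ± 0.19 for striatum against cerebellum (adjusted p = 0.58 for both, edgeR), the latter with its direction turned.

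Hdac4 (ENSMUSG00000026313, chr1:91928779-92195699), a class IIa deacetylase that is exported from the nucleus on neuronal activity, had its highest level in cortex. WT cortex had 71.2 ± 16.3 CPM against 52.4 ± 7.84 in cerebellum and 54.4 ± 13.5 in striatum (SD, n = 8). Cortex was higher than cerebellum by a log2 difference of 0.45 ± 0.14 (adjusted p = 0.0082) and higher than striatum by 0.36 ± 0.14 (adjusted p = 0.036), and striatum and cerebellum differed by 0.09 ± 0.14 (adjusted p = 0.59, edgeR). Of its exonic bases, 22.4% are shared with the gene Gm26720 on the opposite strand, and the strand that was counted is not stated. How much of the Hdac4 count this overlap affects is not known, since the share is of bases and not of reads.

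The transcription factors and co-regulators were at their highest in cortex, with Tcf4 near its cortical level in cerebellum. Rai1 (ENSMUSG00000062115, chr11:60105013-60199197), a dosage-sensitive nuclear protein that regulates transcription in neurons, had 58.2 ± 8.99 CPM in WT cerebellum, 87.4 ± 17.8 in cortex and 75.5 ± 11.8 in striatum (SD, n = 8). It was higher than in cerebellum by 0.59 ± 0.12 in cortex (adjusted p = 1.7e-04) and 0.41 ± 0.12 in striatum (adjusted p = 0.0042), and cortex and striatum differed by 0.18 ± 0.12 (adjusted p = 0.22, edgeR). Tcf4 (ENSMUSG00000053477, on chromosome 18), a basic helix-loop-helix E protein, had 266 ± 51.5 CPM in cerebellum, 292 ± 57.7 in cortex and 150 ± 44.9 in striatum (SD, n = 8). Cerebellum and cortex differed by 0.14 ± 0.16 (adjusted p = 0.46, edgeR) while striatum was lower than cerebellum by −0.79 ± 0.16 (adjusted p = 1.0e-04, edgeR). Zeb2 (ENSMUSG00000026872, chr2:44983632-45117395), a zinc finger homeobox repressor of cortical and glial development, had 66.8 ± 19 CPM in cerebellum, 115 ± 30.8 in cortex and 62.4 ± 22.2 in striatum. Cortex was higher by 0.80 ± 0.2 than cerebellum (adjusted p = 0.0018) and by 0.86 ± 0.2 than striatum (adjusted p = 0.0016), and the latter regions differed by −0.06 ± 0.2 (adjusted p = 0.8, edgeR). With the spike-in covariate the cortical excess of Zeb2 over cerebellum was 0.93 ± 0.21 (adjusted p = 5.4e-04, edgeR). Between cortex and striatum no member, Zeb2 and Tcf4 included, kept an adjusted p under 0.05 with this covariate. Across the alternative fits by edgeR or DESeq2, the Zeb2 difference there went down to 0.40 and its adjusted p up to 0.66. The differences of Rai1 and Tcf4 between striatum and cerebellum also lost the threshold with the covariate.

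Ube3a (ENSMUSG00000025326, chr7:59228750-59311536) encodes a HECT-type ubiquitin ligase and is expressed in neurons from the maternal copy alone, the paternal copy being silenced by the long antisense transcript Snhg14. WT cerebellum ran from 84.4 to 217 CPM with a median of 123, WT cortex from 84.3 to 162 with a median of 128 and WT striatum from 30.9 to 101 with a median of 42.8. Cerebellum and cortex overlapped along most of their range, while 7 of 8 striatum libraries lay below every library of the other regions, the exception being 1 library at 101 CPM. Striatum was lower than cerebellum by −1.40 ± 0.22 (adjusted p = 4.2e-06), a 2.64-fold difference, cortex was higher than striatum by 1.27 ± 0.22 (adjusted p = 9.2e-05), and cortex and cerebellum differed by −0.12 ± 0.21 (adjusted p = 0.64, edgeR). The covariate for the spike-in share took the striatal difference from cerebellum to −0.10 ± 0.25 (adjusted p = 0.82, edgeR). Snhg14, which shares 8.74% of the exonic bases of Ube3a on the opposite strand, was also lowest in striatum but fell from cerebellum to cortex as well, with 170 ± 74.2, 102 ± 22.7 and 51.5 ± 14.5 CPM in cerebellum, cortex and striatum, and without a stated strand reads in the shared part cannot be told apart.

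Cntnap2 (ENSMUSG00000039419, chr6:45059357-47304213), an adhesion protein of the neurexin family that gathers potassium channels beside the node of Ranvier, spans 2240 kb, the longest of the members. WT levels were 76.2 ± 26 CPM in cerebellum, 133 ± 22.8 in cortex and 98.1 ± 15.7 in striatum (SD, n = 8). Cortex was higher by 0.81 ± 0.16 than cerebellum (adjusted p = 1.2e-04) and by 0.40 ± 0.16 than striatum (adjusted p = 0.037), and striatum was higher than cerebellum by 0.40 ± 0.16 (adjusted p = 0.028, edgeR). With the mouse as a replicate block the difference between cortex and striatum was 0.41 ± 0.17 and no longer passed (adjusted p = 0.052, edgeR). The highest cerebellum libraries for this gene were those with low cerebellar markers, at 149 CPM in the Mbd5+/GT mouse and 128 CPM in the WT mouse. Without the 3 low-marker WT libraries the cortical excess over cerebellum was 0.95 ± 0.14 (adjusted p = 2.8e-06, edgeR).

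**Figure D2:**
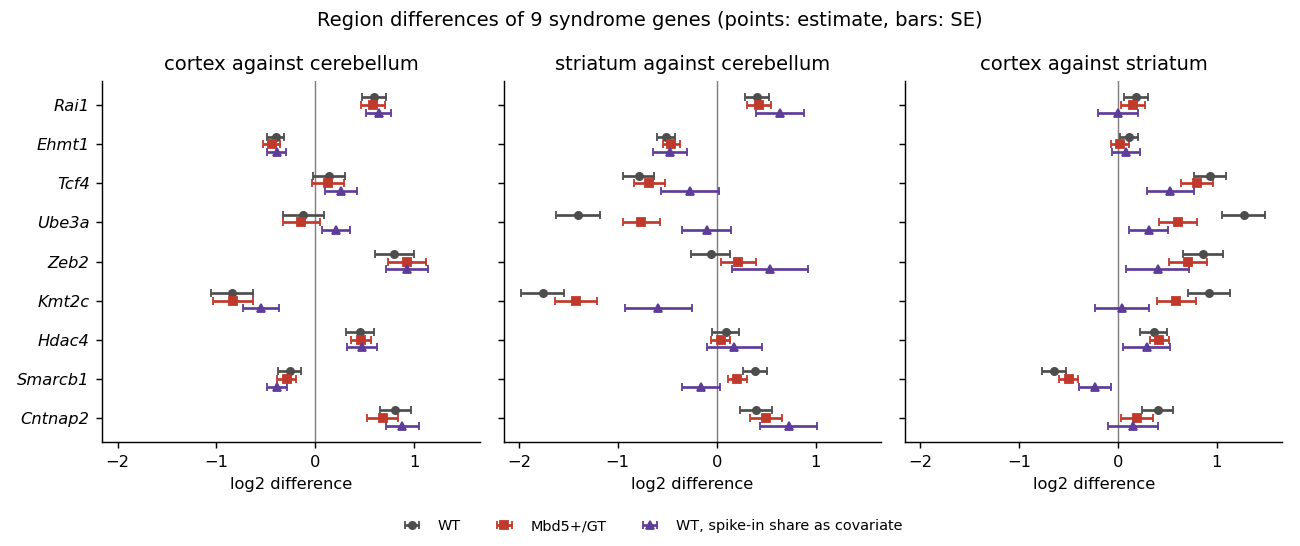
Log2 difference between regions (horizontal axis) for each member, with SE bars, in WT mice (grey), in Mbd5+/GT mice (red) and in WT mice with the log2 spike-in share as a covariate (purple). The WT and Mbd5+/GT estimates lie side by side for most genes, the widest gap being that of Ube3a in the comparisons with striatum, and the covariate moves Ube3a from −1.40 to −0.10 and Kmt2c from −1.76 to −0.59 between striatum and cerebellum.

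In Mbd5+/GT mice, with 10 libraries per region, the gradients of several members had the direction of WT mice. Kmt2c in striatum was below cerebellum by −1.42 ± 0.21 (adjusted p = 5.8e-07, edgeR), Ehmt1 by −0.46 ± 0.087 (adjusted p = 3.0e-05) and Tcf4 by −0.68 ± 0.16 (adjusted p = 4.2e-04, edgeR). Ube3a in striatum was below cerebellum by −0.76 ± 0.19 (adjusted p = 7.5e-04, edgeR), against −1.40 in WT mice. Smarcb1 in striatum against cerebellum was at 0.21 ± 0.098 (adjusted p = 0.058, edgeR) and did not pass, and Zeb2 was at 0.22 ± 0.18 (adjusted p = 0.31, edgeR), against −0.06 in WT mice. Levels of different members can be set against each other only per length: over the merged exons of a gene, WT cortex had between 4.51 RPKM (CPM per kilobase, Hdac4) and 13 RPKM (Cntnap2), and over the longest coding transcript between 6.95 RPKM (Ehmt1) and 34.1 RPKM (Tcf4), so the order of the members depended on the gene model used.

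Across libraries of a group, Ube3a and Kmt2c rose and fell together and Smarcb1 moved against them. Each library's log2 CPM was set against the mean of its region and genotype, and Pearson's r was computed over 54 such deviations, which share mice, depth and dissection, as a description without a test. Of 36 pairs of members, 5 had r above 0.5 and 4 had r below −0.5. Ube3a with Kmt2c had r = 0.78, and 0.87, 0.87 and 0.67 within cerebellum, cortex and striatum. Ube3a with Smarcb1 had r = −0.86, and −0.86, −0.92 and −0.83 within these regions. Smarcb1 was also opposite to Zeb2 (−0.73), Kmt2c (−0.69) and Cntnap2 (−0.60). Zeb2 and Tcf4, which had r = 0.94 in cortex and 0.85 in striatum, had −0.10 in cerebellum. The cerebellum value includes the Mbd5+/GT library low in Purkinje cell markers, with the lowest Tcf4 (113 CPM) and the highest Zeb2 (111 CPM) there. Mbd5 itself was nearest to Kmt2c among the members, at r = 0.85.

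**Figure D3:**
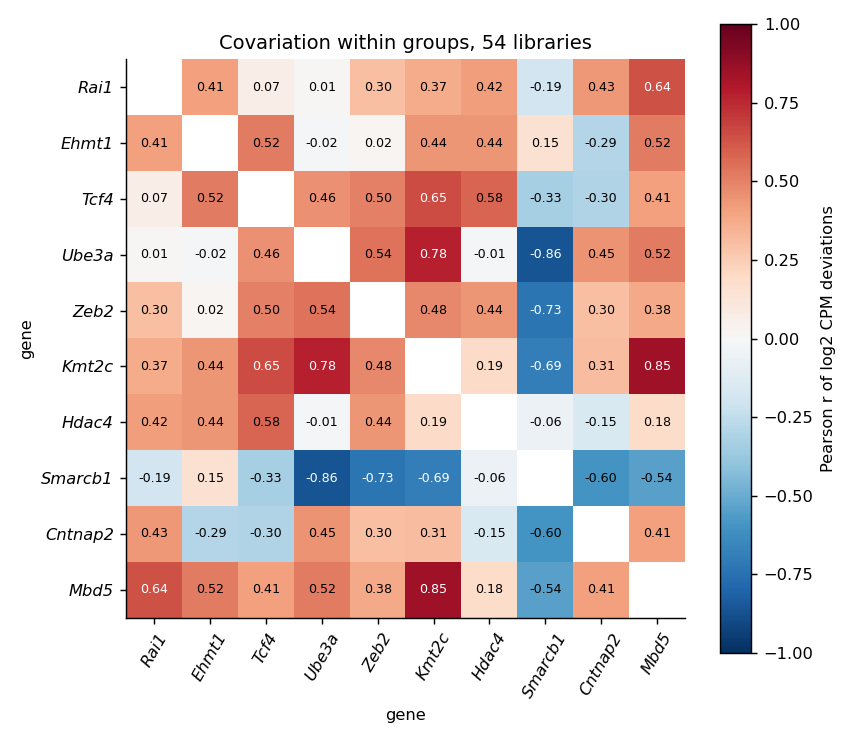
Pearson's r of the log2 CPM deviations from the mean of region and genotype over 54 libraries, for each pair of the 9 members and Mbd5, in red where positive and in blue where negative. Smarcb1 is blue against Ube3a (−0.86), Zeb2 (−0.73) and Kmt2c (−0.69), and the deepest red cells are Kmt2c with Mbd5 (0.85) and with Ube3a (0.78).

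The share of spike-in reads followed these same genes. The log2 spike-in share had r = −0.80 with Ube3a, −0.64 with Kmt2c and 0.67 with Smarcb1 over 54 libraries, and within single regions it had −0.82, −0.68 and −0.87 with Ube3a in cerebellum, cortex and striatum. Ehmt1 and Hdac4 had r = −0.08 and −0.09. Cell type markers moved with other members: in cerebellum, Tcf4 had r = 0.87 with the summed Purkinje cell markers and −0.96 with the microglial markers, Hdac4 in cortex had 0.90 with cortical excitatory neuron markers and −0.75 with striatal projection neuron markers, and Zeb2 had 0.88 in cerebellum and 0.82 in cortex with astrocyte markers. The cerebellum values of r include the 2 libraries low in Purkinje cell markers (216 and 2120 CPM). These libraries also had the lowest Tcf4 in cerebellum, 113 and 179 CPM, and no r was computed without them. In cerebellum Tcf4 also had r = 0.87 with granule cell markers and −0.90 with oligodendrocyte markers. The part of these measures in the levels was not tested.

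**Figure D4:**
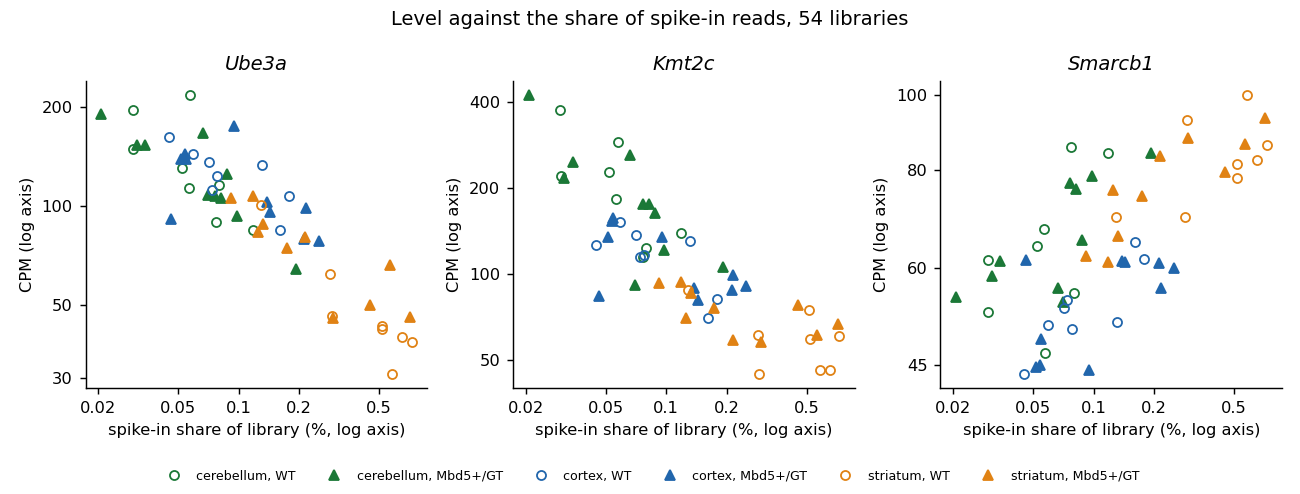
CPM of Ube3a, Kmt2c and Smarcb1 (vertical log axis) against the share of spike-in reads in the library (percent, horizontal log axis) in 54 libraries, coloured by region, with WT as open circles and Mbd5+/GT as filled triangles. Ube3a and Kmt2c fall and Smarcb1 climbs from left to right, and the WT striatum libraries crowd toward the right, at a median share of 0.517% against 0.194% in Mbd5+/GT striatum.

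The genes with deviations most like those of each member were looked for among 17221 genes that passed the filter in all regions. Ube3a was near to Trim23 and Zfp654 (both r = 0.96), and Kmt2c to Tnrc6b and Xrn1 (both 0.98) and Nfat5 (0.97). Smarcb1 was nearest to Eif4a3 (0.96), Puf60 (0.95) and Retreg2 (0.94), of which Eif4a3 and Puf60 act in RNA processing. Rai1 was nearest to Prrc2b (0.90), Ankrd11 and Ubr4 (both 0.89), of which Ankrd11 is the gene of KBG syndrome. Tcf4 was nearest to Hcfc2 (0.91), Gpr22 and Mef2c (both 0.89), Ehmt1 to Hnrnpul1 (0.90), Foxj2 (0.88) and Phf21a (0.87), and Zeb2 to Apc (0.88), St6gal2 and Kcnh7 (both 0.85). Hdac4 was nearest to Tnks1bp1 (0.84), Mast2 (0.83) and Ppm1h (0.81), and Cntnap2 to Robo1 (0.92), Dzank1 (0.90) and its own relative Cntnap5a (0.88). Mbd5 was nearest to Ash1l, Zzef1 and Mtr (all 0.95).

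The genotype comparison asked whether a lower dose of Mbd5 changed the dose of genes whose loss gives a similar syndrome. In each region the Mbd5+/GT and WT mice were compared by edgeR's quasi-likelihood test with surrogate variables. At an adjusted p under 0.05, 0 of 9 members differed in cerebellum, cortex or striatum, where 0.00551%, 0.0107% and 0.00539% of all genes tested did, and DESeq2 with the same terms also gave 0 in each, where it called 0.0165%, 0.338% and 0.0162% of all genes. At an unadjusted p under 0.05, 0 of 9 differed in cerebellum (2.75% of all genes), 0 in cortex (8.47%) and 2 in striatum (7.44%, and 4.24% as higher genes). The values of Mbd5+/GT and WT mice overlapped in 27 of 27 comparisons of a member in a region; among all genes, 0%, 0.0107% and 0% did not overlap in cerebellum, cortex and striatum.

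In cerebellum and cortex the members lay near 0. Their log2 differences ran from −0.01 to 0.06 in cerebellum, where 5 were above 0 and the median was 0.010 (all genes −0.003), and from −0.07 (Ube3a) to 0.08 (Zeb2) in cortex, where 4 were above 0 and the median was −0.015 (all genes −0.004). The 95% intervals of this fit depend on its surrogate variables: for Tcf4 in cortex the interval ran from −0.08 to 0.08, for Ehmt1 in cerebellum from −0.06 to 0.10, for Kmt2c in cortex from −0.10 to 0.11, and for Rai1 in cortex, among the widest, from −0.21 to 0.12. The difference measured for Mbd5 itself lay outside each of these intervals. Errors were wider in the interaction fit over 54 libraries, which had no surrogate variables. There the difference of the genotype effect between cortex and cerebellum had an SE of 0.23 for Tcf4 and 0.3 for Kmt2c. Cntnap2 in cortex ran from 109 to 143 CPM (median 122) in the 10 Mbd5+/GT mice. The 8 WT mice ran from 97.9 to 162 CPM (median 134), a wider range that held the other, and 9 of 10 Mbd5+/GT mice were below the WT mean. The difference of −0.06 ± 0.057 (unadjusted p = 0.31, adjusted p = 0.84, edgeR) did not exceed the spread between mice.

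In striatum 8 of 9 members were above 0, with a median log2 difference of 0.091 against −0.010 over all genes. Some members covaried across these libraries, such as Tcf4 with Zeb2 (r = 0.85) and with Hdac4 (r = 0.86), so they are not separate observations. Ube3a had the widest difference. Its level ran from 45.9 to 107 CPM (median 77.5) in the 10 Mbd5+/GT mice, and the 8 WT mice lay between 30.9 and 101 CPM (median 42.8). Of the 10 Mbd5+/GT mice, 7 were above the WT mean and 10 above the WT median, and the WT library at 101 CPM had the lowest spike-in share of the WT striatum libraries, 0.129%. Mean levels were 74.7 ± 22.7 and 50.6 ± 22.3 CPM (SD, 148% of WT), and the fitted log2 difference was 0.35 ± 0.13 (SE, 95% interval 0.10 to 0.60, unadjusted p = 0.013, adjusted p = 0.63, edgeR). An exact permutation test without surrogate variables gave a log2 difference of 0.59 with p = 0.024 over 43758 splits (2-sided) and, keeping the numbers of each litter, p = 0.026 over 3500 splits. Within litters 1, 2 and 3 the difference was 1.03, 0.42 and 0.52.

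Kmt2c in striatum ran from 57.8 to 94 CPM (median 73.4) in the Mbd5+/GT mice, and the WT mice ran from 44.7 to 88 CPM (median 60). The groups overlapped, and 8 of 10 Mbd5+/GT mice were above the WT mean, with means of 74.3 ± 13.5 and 60.2 ± 15.2 CPM (SD, 123% of WT). The log2 difference was 0.15 ± 0.057 (95% interval 0.04 to 0.27, unadjusted p = 0.014, adjusted p = 0.63, edgeR), and the exact permutation test gave p = 0.043 over all splits and p = 0.053 within litters. Litter 2, with its single WT mouse, had the other direction (−0.29, against 0.63 and 0.47 in litters 1 and 3).

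Both striatal differences lost their unadjusted p under 0.05 with the spike-in covariate, without the low-marker libraries and without litter 2, where 2.02%, 5.46% and 1.57% of all genes had one. The spike-in share was 0.092% to 0.713% in Mbd5+/GT striatum and 0.129% to 0.728% in WT striatum, with medians of 0.194% and 0.517%. With its log2 as a covariate in place of the surrogate variables, Ube3a differed by 0.21 (unadjusted p = 0.1) and Kmt2c by 0.15 (unadjusted p = 0.25, edgeR). Without the 2 low-marker WT libraries the differences were 0.26 (unadjusted p = 0.093) and 0.13 (unadjusted p = 0.07), and without litter 2 they were 0.11 (unadjusted p = 0.51) and 0.08 (unadjusted p = 0.43, edgeR). Without the 2 WT libraries labelled as repeated they were 0.29 (unadjusted p = 0.029) and 0.08 (unadjusted p = 0.17, edgeR). Of 9 alternative fits by edgeR or DESeq2, Ube3a kept an unadjusted p under 0.05 in 6 and Kmt2c in 5. The fit without litter 2 estimated its 4 surrogate variables anew on the remaining mice. Within litters 1 and 3, without surrogate variables, the differences were 1.03 and 0.52 for Ube3a and 0.63 and 0.47 for Kmt2c.

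The other members in striatum had unadjusted p-values of 0.082 or above. Ehmt1 differed by 0.10 ± 0.057 (unadjusted p = 0.082), Tcf4 by 0.09 ± 0.053 (unadjusted p = 0.1), Zeb2 by 0.10 ± 0.11 (unadjusted p = 0.36), Hdac4 by 0.06 ± 0.069 (unadjusted p = 0.4) and Cntnap2 by 0.04 ± 0.067 (unadjusted p = 0.57, edgeR). Rai1 and Smarcb1 lay at 0.03 ± 0.082 and −0.02 ± 0.044. In cortex, 2 members passed an unadjusted p under 0.05 once litter 2 was left out: Ube3a at −0.16 (unadjusted p = 0.003) and Rai1 at 0.10 (unadjusted p = 0.022, edgeR), where 9.15% of all genes did.

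**Figure D5:**
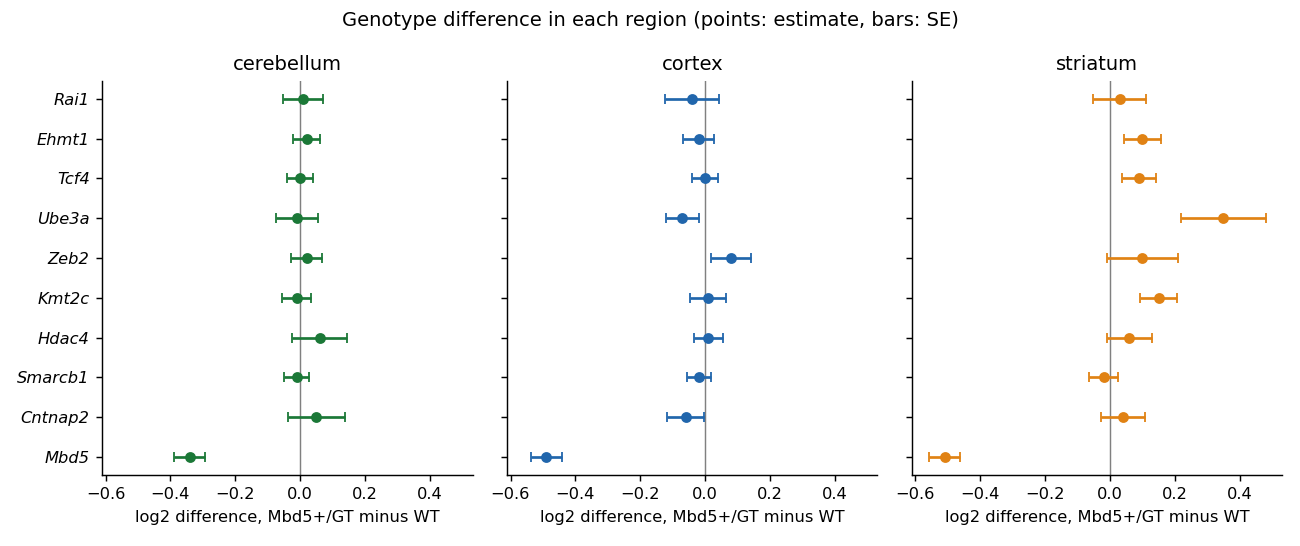
Log2 difference of Mbd5+/GT minus WT (horizontal axis) for the 9 members and Mbd5 in cerebellum, cortex and striatum, from the fit with surrogate variables, with SE bars. The members lie within 0.08 of 0 in cerebellum and cortex, Ube3a (0.35) and Kmt2c (0.15) lie to the right in striatum, and Mbd5 is the only gene far to the left in each panel.

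Whether the genotype difference depended on region was tested as an interaction over 54 libraries without surrogate variables. For Ube3a it was 0.68 ± 0.29 higher in striatum than in cerebellum (unadjusted p = 0.025, adjusted p = 1.0, edgeR) and −0.69 ± 0.29 for cortex minus striatum ( unadjusted p = 0.022, adjusted p = 0.99, edgeR), both of which use the same striatum libraries. No other member had an unadjusted p under 0.05, against 2.68% and 4.22% of 20477 genes, and between cortex and cerebellum 0 of 9 did, against 1.11%. For Kmt2c the difference between striatum and cerebellum was 0.38 ± 0.3 (unadjusted p = 0.22, edgeR). With the mouse as a replicate block, since each animal gave a library to all 3 regions, the values for Ube3a were 0.63 ± 0.28 (unadjusted p = 0.033) and −0.70 ± 0.28 (unadjusted p = 0.018, edgeR). The difference of the genotype effect between males and females had 0 of 9 members at an unadjusted p under 0.05 in each region, against 0.54%, 1.3% and 1.62% of all genes in cerebellum, cortex and striatum; the smallest p was that of Smarcb1 in striatum (0.24 ± 0.15, unadjusted p = 0.13, edgeR).

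Genes that work with the members were read in the same way from lists of partners, 157 genes in all, of which 152 to 155 were tested. At an adjusted p under 0.05, 0 differed by genotype in any region. By the unadjusted p, 0 were higher and 3 lower for cerebellum (1.97% of those tested), 5 higher and 12 lower for cortex (11%) and 10 higher and 2 lower for striatum (7.74%), near the 2.75%, 8.47% and 7.44% of all genes. Of the 8 tested subunits of the KMT2C and KMT2D complex, 0 passed in each region. Of the 25 BAF complex genes, 2 were lower in cortex (8%, no more than the 8.47% of all genes), Smarca2 (−0.14 ± 0.054, unadjusted p = 0.022), an ATPase of the complex, and Smarcd1 (−0.13 ± 0.059, unadjusted p = 0.043, edgeR), and 0 passed in cerebellum and striatum.

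Among the 12 tested partners of Hdac4, 1 was higher and 1 lower in cortex (16.7%, against 8.47% of all genes). Its relative Hdac7 was higher there (0.19 ± 0.037, unadjusted p = 9.8e-05, adjusted p = 0.17, edgeR) and Hdac9 lower (−0.20 ± 0.065, unadjusted p = 0.0061, edgeR). Of 12 E proteins and their partners, 2 were lower in cerebellum (16.7%, against 2.75% of all genes), Neurod6 (−0.23 ± 0.07, unadjusted p = 0.0037) and Id1, an inhibitor of E proteins (−0.16 ± 0.072, unadjusted p = 0.039, edgeR). In cortex 1 was higher (8.33%, against 8.47% of all genes), Neurod2 (0.18 ± 0.061, unadjusted p = 0.0082, edgeR). In striatum 1 was lower (8.33%, against 7.44% of all genes), again Id1 (−0.26 ± 0.1, unadjusted p = 0.022, edgeR). Among genes listed in and around the imprinted domain of Ube3a, 2 were higher and 3 lower in cortex of 15 tested (33.3%, against 8.47% of all genes). In cerebellum 1 was lower of 15 (6.67%), and 0 of 16 passed in striatum. The 2 higher in cortex were Oca2, near the floor at 0.88 ± 0.705 CPM against 0.419 ± 0.14 in WT, and Magel2. Magel2 was at 5.74 ± 6.21 CPM against 4.29 ± 3.54 in WT (SD). This list was not counted under the alternative fits. The paternally expressed gene Ndn had a log2 difference of −0.24 ± 0.057 in cerebellum (unadjusted p = 4.4e-04, adjusted p = 0.81), −0.48 ± 0.19 in cortex (unadjusted p = 0.026) and −0.42 ± 0.22 in striatum (unadjusted p = 0.082, edgeR). Snhg14 in striatum differed by 0.17 ± 0.1 (unadjusted p = 0.1, edgeR). Of the 19 genes of the Smith-Magenis interval around Rai1, 1 passed, Drc3 in cortex (0.13 ± 0.06, unadjusted p = 0.043, edgeR), 5.26% against 8.47% of all genes there.

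A list of 20 genes of other syndromes of intellectual disability had the highest count of these lists in striatum: 7 of its genes were higher and 0 were lower by an unadjusted p under 0.05 (35%, against 7.44% of all genes), with a median of 0.050. In cortex the same list had 0 higher and 2 lower (10%, against 8.47% of all genes), and in cerebellum 0 passed (2.75% of all genes). In cortex 19 of its 20 genes were below 0, with a median of −0.059 (all genes −0.004). The genes higher in striatum included the transcription factor Mef2c (0.22 ± 0.065, unadjusted p = 0.0035, adjusted p = 0.63) and the chromatin remodeller Atrx (0.24 ± 0.082, unadjusted p = 0.0091, edgeR). The striatal count was 0 with the spike-in covariate, 0 without litter 2, 1 higher and 1 lower without the low-marker libraries, and 1 without the repeated libraries. It was 7 higher by DESeq2 or with RLE size factors, 6 with no surrogate variables or with litter and sex, and 5 with no filter, each with 0 lower. Between regions of WT mice, 17 of the 20 were higher in cortex than in striatum at an adjusted p under 0.05 and 0 were lower, against 23.8% of all genes higher, and 2 with the spike-in covariate. The other alternative fits had 15 to 17 higher and 0 lower. The median log2 difference of this list between cortex and striatum was 0.589, and that of the 9 members 0.404, against −0.028 for all genes.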

How the data were processed

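RNA from cerebellum, cortex and striatum was analysed in 54 libraries of 18 mice, grouped by genotype and region from the sample labels. The deposited file holds raw counts. The authors aligned reads to GRCm38 with STAR (2.4.2, with FastQC 0.10.1 for quality per the submitters' processing notes) and counted them per gene with STAR itself; the strand column kept is not given in the sources used here, and reads mapping to several places are not counted. The 92 spike-ins entered neither library sizes nor tests. Gene names came from GENCODE on GRCm38 (46488 of 47069 identifiers), and 0 columns were unused.

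In each region, genes that exceeded 4 counts in 8 or more libraries were normalised by TMM and fitted with edgeR 4.0.16 (quasi-likelihood, robust, R 4.3.3) with genotype and 2, 4 and 4 surrogate variables (sva 3.50.0) in cerebellum, cortex and striatum, with Benjamini-Hochberg adjustment over all genes tested. DESeq2 1.42.0 was an alternative. Region contrasts used WT mice, and interactions used 20477 genes. The genotype fit of each region, and no other fit, was also run on simulated counts, which held no litter or spike-in structure. Correlations used log2 CPM with a prior count of 2. A library was called low in markers when their sum was under 0.35 of the region's median.

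The members were chosen for their syndromes, and they and the gene lists were chosen with earlier results of these data known. All members and Mbd5 are named, with up to 3 genes of each list by unadjusted p or by the WT difference between cortex and cerebellum, and the 3 genes of highest r per member; Snhg14 was added as the antisense partner of Ube3a. Some genes that this rule names are not reported here. The libraries of a mouse come from 1 animal, so mouse numbers pair the regions: deviations from group means had a median r of 0.193, 0.073 and 0.117 between the regions of a mouse (cerebellum with cortex, cerebellum with striatum, cortex with striatum) and −0.011, −0.011 and −0.023 between mice. P-values measure the spread between mice within these 3 litters.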

Additional observations from a re-analysis of the deposited data

Results flagged for a closer look

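Of 54 groups of a member, region and genotype, 2 held a library whose distance to the next was wide for the range of its group, where chance gives about 1 in 20. Tcf4 in Mbd5+/GT cerebellum was 113 CPM in its lowest library, with the next lowest library at 209 CPM; this library also had summed Purkinje cell markers of 216 CPM and summed Hox genes of 246 CPM, and its part in the Tcf4 value was not tested. Ehmt1 in Mbd5+/GT cortex was 32.9 CPM in its lowest library, with the next lowest at 38.9 CPM, a gap of 0.47 of the range.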

How the results depend on the processing

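Of 216 alternative values of a member's genotype difference, 190 kept their direction and their side of the threshold and 26 turned, each from a reported value within 0.09 of 0. Tcf4, reported as 0.00 in cerebellum and cortex and so without a direction to turn, ran from −0.02 to 0.04 and from −0.03 to 0.05. In cerebellum, with no surrogate variables, Rai1 was −0.03, Zeb2 −0.05, Smarcb1 0.03 and Cntnap2 −0.01. With litter and sex in their place, Ube3a was 0.03 and Kmt2c 0.07. Without litter 2, Zeb2 was −0.02 and Smarcb1 0.02. With the spike-in covariate, and again without the low-marker libraries, Rai1 was −0.01 and Zeb2 −0.02. In cortex, with no filter, Rai1 was 0.07, Ehmt1 0.02 and Smarcb1 0.01; with no surrogate variables, Kmt2c −0.06 and Smarcb1 0.02; with litter and sex, Rai1 0.06 and Ehmt1 0.02; and without litter 2, Rai1 0.10, Ehmt1 0.05, Smarcb1 0.03 and Cntnap2 0.04. In striatum, Tcf4 was −0.01 and Cntnap2 −0.04 without litter 2, and Smarcb1 0.02 with the spike-in covariate. The cause was not tested.

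Members at an unadjusted p under 0.05 numbered 0 in cortex, 1 with no filter and 2 without litter 2, and 2 in striatum, 1 without the repeated libraries and 0 without litter 2, with the spike-in covariate or without the low-marker libraries. Genes at an adjusted p under 0.05 numbered 1 in cerebellum (3 by DESeq2 and 2 with no filter), 2 in cortex (63 by DESeq2 and 7 with no filter) and 1 in striatum (3 by DESeq2). These were 0 in every region with no surrogate variables, with litter and sex, or with the spike-in covariate, and 0 in cerebellum and striatum without litter 2.

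Of 189 alternative values of a region difference, 163 were unchanged in direction and side, 17 lost the threshold, 4 gained it and 5 turned. The spike-in covariate, added after seeing the data together with the fits without low-marker libraries, left 1 member called where 7 were (5055 genes where 12732 were) between striatum and cerebellum and 0 where 7 were (54 genes where 9433 were) between cortex and striatum. It turned Ube3a to 0.21 between cortex and cerebellum, and between striatum and cerebellum Zeb2 to 0.54 and Smarcb1 to −0.16, and Mbd5, which is no member, to 0.24. Zeb2 between striatum and cerebellum was 0.22 in Mbd5+/GT mice, and Hdac4 was −0.06 without the low-marker libraries. With the mouse as a replicate block, Cntnap2 between cortex and striatum was 0.41 with an adjusted p of 0.052 (edgeR), leaving 6 members called where 7 were. Of 27 interaction values, the replicate block turned 2, Rai1 to 0.02 and Tcf4 to 0.03 between cortex and cerebellum, and changed no other call. The lowest count of Ehmt1 in a library was 874; the part of depth in the precision was not tested.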

Other observations

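The WT striatum library lowest in striatal projection neuron markers (325 CPM) had the highest WT striatum values of Tcf4 (234 CPM) and Hdac4 (81.7 CPM) and a Zeb2 value of 90 CPM. The other WT striatum library low in these markers had the lowest WT striatum values of Ehmt1 (29 CPM), Zeb2 (34.2 CPM) and Kmt2c (44.7 CPM). The Mbd5+/GT cerebellum library low in Purkinje cell markers had the highest cerebellum values of Zeb2 (111 CPM) and Cntnap2 (149 CPM) and the lowest of Ehmt1 (35.1 CPM), Tcf4 (113 CPM) and Kmt2c (91.4 CPM).

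Among the named genes of the lists, wide WT differences between cortex and cerebellum included those of Cntnap3, a relative of Cntnap2 (log2 difference 6.00 ± 0.54, adjusted p = 8.7e-10), and of the E protein partner Neurod1 (−5.36 ± 0.32, adjusted p = 6.8e-13, edgeR).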
